A study of Homo sapiens with 54 samples.

Results

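The 5 genes CCR1, CCR2, CX3CR1, CXCR4 and CCRL2 code for chemokine receptors that macrophages and their precursors can carry. They were chosen by name, and all 5 were among the 58735 genes of the bulk RNA table. Their RNA was followed in macrophages made from H1, an established human pluripotent stem cell line, which the series grew on a porous 3D microscaffold or in flat 2D culture. Bulk RNA came from 32 libraries in 11 groups. There were 2 libraries each of 3D cultures labelled E. coli, SP14 and SP6A, 3 each of 3D cultures with FBS (fetal bovine serum) in the label at days 16, 19 and 23, 4 of 3D cultures at day 12, 3 each of 3D cultures without FBS in the label at days 16, 19 and 23, and 4 of 2D cultures at day 12. The labels give no day for the E. coli libraries, and for SP6A and SP14 the time point field holds the code alone. Days 7, 9 and 12 of 3D culture each gave 1 droplet single-cell RNA library. All groups share the H1 line and the cell type label macrophage, and the labels do not say that libraries of a group came from separate cultures, so p-values measure the spread between libraries.

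The labelled cell type was checked first. All 13 macrophage markers (CD14, CD68, CSF1R, the C1q genes, CD163 and others) reached at least 1 TPM (a length-scaled share of a library's transcripts) in every bulk library. The bulk table holds no read totals, so depth is unknown there, and between 11862 and 13257 genes reached 1 TPM in the libraries other than E. coli. The E. coli libraries stood apart, with 7954 and 8103 genes at 1 TPM and a correlation of 0.657 between them on the log2 scale, against 0.891 to 0.968 within the other groups. Results that rest on them are given with each library's value. A set of 3 clone-named genes held between 0.418% and 28.4% of all TPM in group means, so TPM of other genes are shares of what was left.

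Chemokine receptors are G protein-coupled receptors of the cell surface that steer cells along gradients of small secreted proteins. CCR1 binds CCL3, CCL5 and related ligands of inflamed tissue, and CCR2 binds CCL2 and brings monocytes out of the bone marrow. CX3CR1 binds fractalkine (CX3CL1) and marks tissue-resident macrophages such as microglia and patrolling monocytes. CXCR4 binds CXCL12 and holds blood progenitors in their niche. CCRL2 is an atypical receptor that does not signal through G proteins; it binds chemerin, the product of RARRES2, and presents it to the signalling receptor CMKLR1.

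CCR1 (ENSG00000163823) lies on chr3:46201711-46208313, CCR2 (ENSG00000121807) on chr3:46354111-46360940, CCRL2 (ENSG00000121797) on chr3:46407259-46409523 and CX3CR1 (ENSG00000168329) on chr3:39263494-39292966. CXCR4 (ENSG00000121966) lies on chr2:136114349-136118149. The coordinates are those of RefSeq on GRCh38.p14. CX3CR1 overlaps the pseudogene ADAD1P1 there, and the other 4 overlap no annotated gene.

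All 5 genes matched the RefSeq promoter table, which gives 250 bases before to 50 after each annotated start. The windows of CCR1, CCRL2 and CX3CR1 are shown because these genes had the highest levels in macrophages and moved in opposite directions in the SP6A and SP14 libraries, and that of CCR2 because it was near 0 in the same libraries. Capitals mark matches to the ETS core GGAAGT, to the AP-1 motif TGANTCA and to the hypoxia-response core ACGTG, each on either strand. The strand is minus for CCR1 at chr3:46208264-46208563 and for CX3CR1 at chr3:39281686-39281985, and plus for CCRL2 at chr3:46407009-46407308 and for CCR2 at chr3:46353861-46354160.
CCR1 promoter: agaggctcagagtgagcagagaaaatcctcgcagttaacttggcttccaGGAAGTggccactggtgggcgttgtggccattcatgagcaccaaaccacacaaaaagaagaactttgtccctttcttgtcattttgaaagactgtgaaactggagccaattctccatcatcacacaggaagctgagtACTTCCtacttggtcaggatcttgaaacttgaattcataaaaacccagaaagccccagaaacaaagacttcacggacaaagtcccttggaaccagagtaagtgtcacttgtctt
CCRL2 promoter: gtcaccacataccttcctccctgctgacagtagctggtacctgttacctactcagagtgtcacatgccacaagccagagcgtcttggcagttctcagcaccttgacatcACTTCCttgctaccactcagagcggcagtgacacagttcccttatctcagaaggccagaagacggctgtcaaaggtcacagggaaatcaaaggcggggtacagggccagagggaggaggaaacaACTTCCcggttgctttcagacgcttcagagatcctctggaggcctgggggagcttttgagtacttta
CX3CR1 promoter: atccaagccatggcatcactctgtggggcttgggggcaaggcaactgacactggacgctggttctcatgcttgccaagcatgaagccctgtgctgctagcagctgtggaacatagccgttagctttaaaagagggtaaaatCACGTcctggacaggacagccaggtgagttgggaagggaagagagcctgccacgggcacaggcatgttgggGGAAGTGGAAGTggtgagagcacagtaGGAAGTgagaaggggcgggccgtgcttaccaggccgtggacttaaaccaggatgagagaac
CCR2 promoter: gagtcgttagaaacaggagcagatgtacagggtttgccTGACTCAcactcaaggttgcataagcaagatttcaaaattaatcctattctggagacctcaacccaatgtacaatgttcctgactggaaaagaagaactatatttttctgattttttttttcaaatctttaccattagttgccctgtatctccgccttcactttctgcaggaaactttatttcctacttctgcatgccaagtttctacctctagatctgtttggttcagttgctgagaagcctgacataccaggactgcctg

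The CCR1 window held 2 ETS cores, which begin at positions -201 and -64 from the start. The CCRL2 window shown held 2, at -141 and -17. The CX3CR1 window shown held 3, at -38, -32 and -11, with 1 hypoxia-response core at -109, and lies inside the gene span given above. CCRL2 window 2 and CX3CR1 windows 2 and 3, which belong to other annotated starts, held no match to any motif searched. The CCR2 window held 1 AP-1 match at -212. No match to any of the motifs searched was found in the 3 CXCR4 windows, and none of the 10 windows of the 5 genes matched the NF-kB motif or the interferon-response composite (GAAA, any 2 bases, GAAA). Over all 35114 windows of the table, 22.8% held the ETS core, 7.71% AP-1, 21.4% the hypoxia-response core, 5.91% NF-kB and 3.57% the interferon composite. These matches describe the letters of the windows and carry no measurement of binding.

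Group differences in bulk RNA were tested with limma on log2(TPM + 1), with Benjamini-Hochberg adjustment over all genes tested and a threshold of 0.05, so every change below is on that scale and understates the change of low genes. In 3D against 2D culture at day 12, 3 of the 5 receptors were called, where 37.8% of 13131 genes were. Of 13384 genes tested among 3D groups, none of the 5 was called at day 16 against day 12 (16.6% of all genes), and only CX3CR1 was at day 19 (11.8%) and at day 23 (25.6%). FBS against no FBS called CXCR4 and CX3CR1 on the mean of the 3 days (34.3% of all genes) and at day 16 (18.1%), and CCRL2, CXCR4 and CX3CR1 at day 19 (25.0%). At day 23 it called CX3CR1 alone (13.7%). The effect of FBS differed between days for CXCR4 and CX3CR1 (12.9% of all genes), and the CXCR4 call was lost in 14 of 25 other settings. SP6A against 3D day 12 called 4 of the 5, all but CCR2 (27.9%), SP14 against 3D day 12 called the same 4 (31.4%), and SP14 against SP6A called none (0.0299%, which is 4 genes). E. coli against the mean of the 4 days without FBS called CCRL2, CXCR4, CX3CR1 and CCR1 (56.6%), and the CCR1 call rests on 1 library. The CCR2 call there is not counted, because the same E. coli libraries put CCR2 over the filter. Calls were common among all genes, so these counts alone do not set the 5 receptors apart. CCR2 was tested among 3D groups only because 1 E. coli library lifted its mean to 1.13 TPM; without those libraries its mean was 0.206 TPM, under the filter of 1 TPM.

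**Figure D1:**
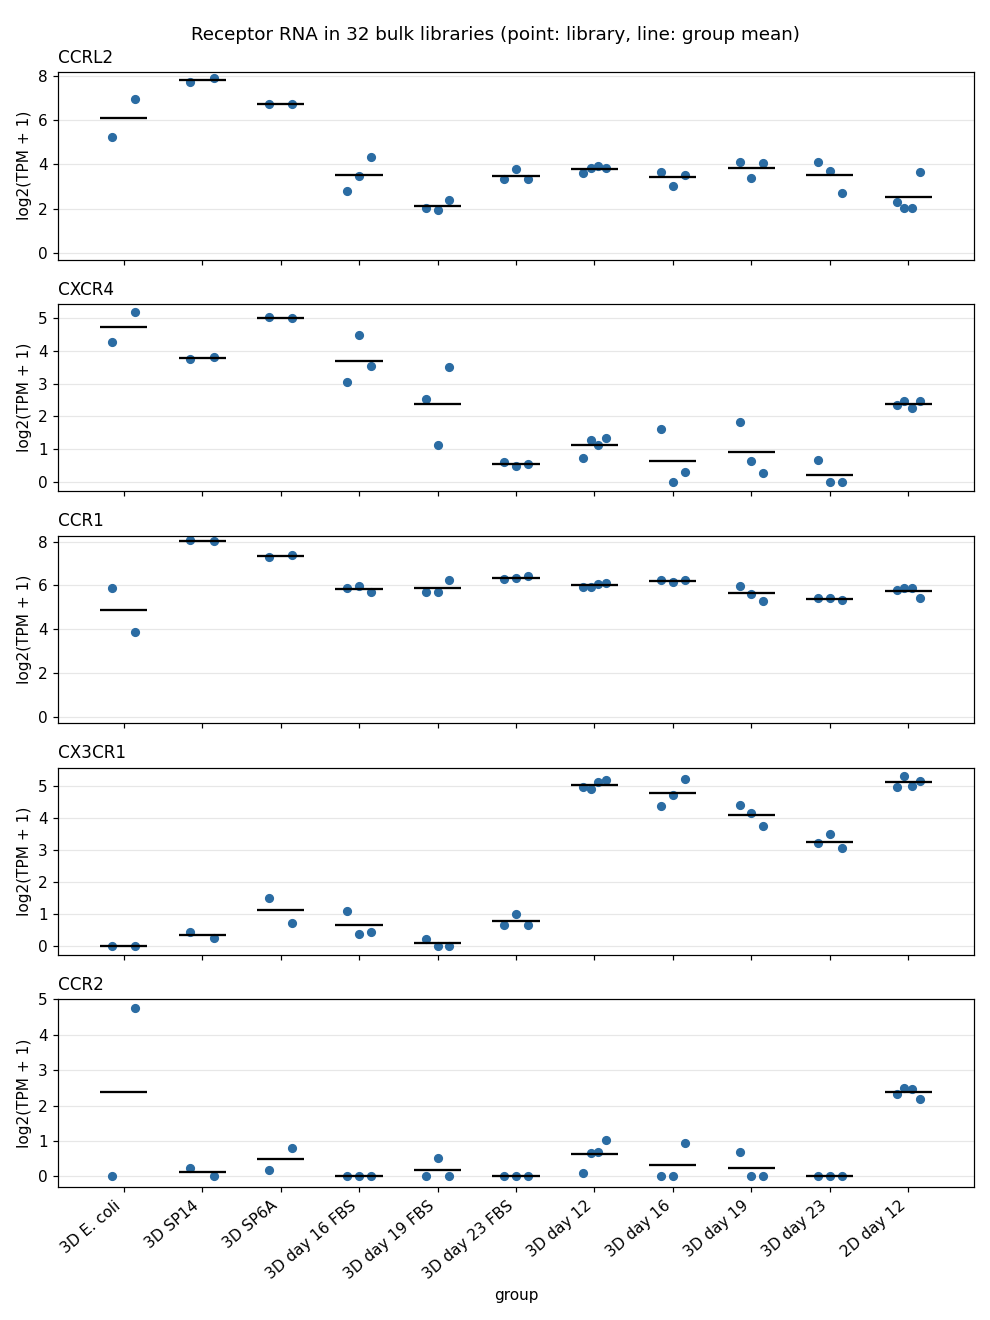
RNA of the 5 receptors as log2(TPM + 1) on the vertical axis in each of 32 bulk libraries (points) with the mean of each of 11 groups (lines). CX3CR1 stands between 7.29 and 39.07 TPM in cultures without FBS, SP or E. coli labels and at or below 1.85 TPM in all others, while CCRL2 is highest in SP14 libraries at 206.73 and 233.5 TPM.

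CX3CR1 had the largest change on the log2 scale among the 5, -4.72 in SP14 libraries against day 12. It was low in every library with FBS, SP6A, SP14 or E. coli in the label, and it fell along the days of 3D culture without FBS. At day 16 the FBS libraries held 1.14, 0.3 and 0.35 TPM, against 20.05, 25.61 and 36.85 TPM without FBS. At day 19 they held 0.16, 0 and 0 TPM, against 20.45, 16.81 and 12.53 TPM. At day 23 they held 0.57, 0.99 and 0.56 TPM, against 8.42, 10.34 and 7.29 TPM. The FBS libraries lay below the libraries without FBS at each day, with no overlap. The log2 change was -4.15 ± 0.27 (SE; limma adjusted p = 1.34e-09) at day 16, -4.04 ± 0.27 (adjusted p = 1.15e-09) at day 19 and -2.50 ± 0.27 (adjusted p = 1.33e-06) at day 23. The differences between these 3 changes passed the interaction test (F = 11.96, adjusted p = 0.00673). With 3 libraries against 3, an exact permutation test of 1 gene cannot go below 0.1, which is the value it gave at each of the 3 days.

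Without FBS, 3D day 12 libraries held 30.42, 29.19, 34.27 and 35.7 TPM of CX3CR1, against 30.87, 39.07, 31.41 and 35.05 TPM in 2D day 12 libraries. The groups overlapped, and the log2 change was -0.07 ± 0.16 (adjusted p = 0.752). Within 3D culture, CX3CR1 was not called at day 16 (log2 change -0.27 ± 0.25, adjusted p = 0.535), fell at day 19 (-0.95 ± 0.25, adjusted p = 0.0138) and fell further from the day 12 level at day 23 (-1.79 ± 0.25, adjusted p = 1.58e-05). At days 19 and 23 no library reached the lowest of the 4 day 12 libraries, and the exact two-sided permutation p was 0.0286 at each, the smallest that 3 libraries against 4 allow. The day 19 call was lost without the third day 19 library (adjusted p = 0.0893) and with a pseudocount of 0.1 TPM (adjusted p = 0.167).

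SP6A libraries held 1.85 and 0.65 TPM of CX3CR1 and SP14 libraries 0.36 and 0.18 TPM, below all 4 of the 3D day 12 libraries. The log2 changes against day 12 were -3.94 ± 0.28 (adjusted p = 1.15e-09) for SP6A and -4.72 ± 0.28 (adjusted p = 6.65e-11) for SP14. Both E. coli libraries listed CX3CR1 at 0, and the change against the mean of days 12, 16, 19 and 23 was -4.31 ± 0.25 (adjusted p = 5.61e-12). In order of group means, 2D day 12 (34.1 ± 3.80 TPM, SD, n = 4), 3D day 12 (32.4 ± 3.09, n = 4), 3D day 16 (27.5 ± 8.56, n = 3) and 3D day 19 (16.6 ± 3.96, n = 3) each overlapped the next. Day 23 (8.68 ± 1.54 TPM, n = 3) overlapped neither neighbour, and SP6A, FBS day 23, FBS day 16, SP14, FBS day 19 and E. coli followed with means from 1.25 TPM to 0. Of CX3CL1, a ligand of CX3CR1, no bulk library held more than 0.14 TPM. CX3CL1 is outside the rule for naming genes and was added after its values were seen. Macrophage markers summed to 18470 to 22760 TPM with FBS at day 16, against 22130 to 24870 TPM without. At day 23 they summed to 21750 to 23880 TPM with FBS, against 13480 to 13860 TPM without. The 7 monocyte markers summed to 1008 to 1200, 917.1 to 1121 and 2014 to 2335 TPM with FBS at days 16, 19 and 23. Without FBS they summed to 1198 to 1273, 1850 to 1906 and 4623 to 5099 TPM at those days. At 3D day 12 they summed to 4639 to 6572 TPM. SP6A, SP14 and E. coli libraries held 1483 to 1558, 1281 to 1330 and 1011 to 1186 TPM of them. Without FBS their sum thus rose from day 16 to day 23, while CX3CR1 fell. The part of these cells in the CX3CR1 changes was not tested. In bulk RNA, fewer cells that carry a transcript and less of it per cell cannot be told apart.

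**Figure D2:**
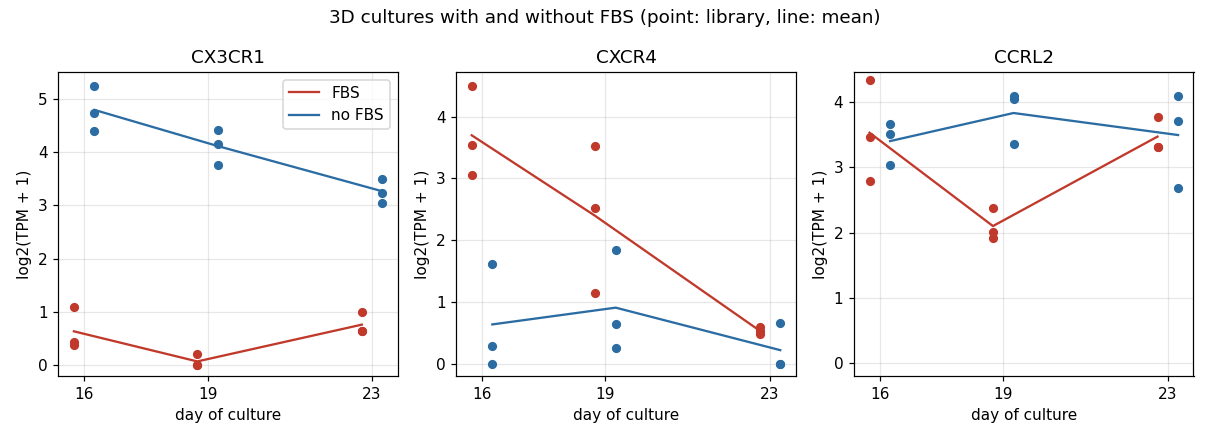
CX3CR1, CXCR4 and CCRL2 as log2(TPM + 1) in 3D cultures with FBS (red) and without FBS (blue) at days 16, 19 and 23; points are libraries and lines join means. CX3CR1 with FBS stays at or below 1.14 TPM, CXCR4 with FBS lies above the libraries without it at day 16, and CCRL2 with FBS lies below them at day 19.

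CXCR4 rose with FBS at day 16, where the FBS libraries held 7.31, 21.6 and 10.59 TPM, against 2.06, 0 and 0.22 TPM without FBS. The groups did not overlap (log2 change 3.06 ± 0.52, limma adjusted p = 0.000259). At day 19 they held 4.73, 1.2 and 10.47 TPM, against 2.56, 0.55 and 0.19 TPM, and overlapped (1.49 ± 0.52, adjusted p = 0.0388). At day 23 they held 0.51, 0.39 and 0.44 TPM, against 0.57, 0 and 0 TPM (0.32 ± 0.52, adjusted p = 0.767). The 3 FBS libraries of day 23 thus lay below every FBS library of days 16 and 19. Over the 3 days the mean change was 1.62 ± 0.30 (adjusted p = 0.000213), and the interaction of FBS with day gave F = 7.15 (adjusted p = 0.0378). The day 19 call and the interaction call were each lost in several other fits. With a pseudocount of 0.1 TPM the adjusted p was 0.094 for day 19 and 0.24 for the interaction, with no filter 0.0851 and 0.0802, and with the compared groups alone 0.166 and 0.0725. Leaving out libraries, the day 19 adjusted p was 0.224 without the third FBS library, 0.0932 without the first, 0.155 without the third library without FBS and 0.115 without the second. The interaction call was lost without any 1 of replicates 2 and 3 at day 16 or replicates 1, 2 and 3 at day 23, with or without FBS, and the adjusted p then reached 0.0982.

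CXCR4 fell in 3D against 2D culture at day 12. The 3D libraries held 0.64, 1.4, 1.18 and 1.55 TPM, against 4.04, 4.57, 3.81 and 4.5 TPM in 2D libraries. The groups did not overlap (log2 change -1.27 ± 0.18, adjusted p = 0.00129). Along the 3D days without FBS it was not called; day 23 libraries held 0.57, 0 and 0 TPM (change from day 12 -0.90 ± 0.48, adjusted p = 0.189). A pseudocount of 0.1 TPM, which gives low values more weight, called that fall (adjusted p = 0.0369).

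SP6A libraries held 31.88 and 31.33 TPM of CXCR4 and SP14 libraries 12.61 and 13.24 TPM, all above the highest 3D day 12 library. The log2 change against day 12 was 3.91 ± 0.55 (adjusted p = 1.17e-05) for SP6A and 2.69 ± 0.55 (adjusted p = 0.000609) for SP14. E. coli libraries held 18.27 and 35.47 TPM, above every library of days 12 to 23 without FBS (4.01 ± 0.48 against their mean, adjusted p = 4.21e-07; 4.04 with adjusted p = 0.108 under array weights). By group mean, SP6A (31.6 ± 0.39 TPM, SD, n = 2), E. coli (26.9 ± 12.2, n = 2), FBS day 16 (13.2 ± 7.49, n = 3) and SP14 (12.9 ± 0.45, n = 2) overlapped in sequence, and so did FBS day 19 (5.47 ± 4.68, n = 3) and 2D day 12 (4.23 ± 0.37, n = 4). All other groups averaged 1.19 TPM or less.

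CXCR4 is also carried by endothelium, blood progenitors and granulocyte precursors, so markers of other cells were read in the same libraries. Of 8 endothelial markers only 2 reached 1 TPM in SP6A and SP14 libraries. Their summed level there was 90.66 to 120.9 TPM, against 7.51 to 12.4 TPM at 3D day 12, and nearly all of it was PECAM1, which macrophages also express. CDH5, the defining endothelial cadherin, stood at 1.18 to 1.57 TPM in SP6A and SP14 libraries, against 2.26 to 3.71 TPM at 3D day 12, and EMCN was listed at 0 in every bulk library. With FBS at day 16 the endothelial sum was 24.57 to 28.67 TPM, against 13.32 to 18.73 TPM without, and CDH5 was 1.56 to 1.98 TPM, against 0.76 to 1.52 TPM. In E. coli libraries CDH5 stood at 9.66 to 15.61 TPM. The 6 granulocyte markers summed to 7.69 to 8.55 TPM in SP6A, 5.38 to 6.69 TPM in SP14, 0 to 0.89 TPM in FBS day 16 and 1.21 to 8.06 TPM in E. coli libraries. The 7 blood progenitor markers summed to 102.9 to 129.8 TPM in E. coli libraries, with 2 to 3 at 1 TPM or more. They summed to 11.3 to 24.33 TPM over 3D days 12 to 23 without FBS. In SP6A, SP14 and FBS day 16 libraries the sums were 16.66 to 20.9, 10.59 to 16.28 and 21.16 to 22.64 TPM. The part of endothelial, granulocytic or progenitor cells in the SP6A, SP14, FBS and E. coli changes of CXCR4 was not tested. At day 12, 6 granulocyte markers summed to 28.18 to 151.8 TPM in 3D libraries (3 to 4 of them at 1 TPM or more), against 1409 to 2776 TPM in 2D libraries (5 to 6). The 8 megakaryocyte markers summed to 20.96 to 47.83 TPM in 3D libraries (3 to 5 at 1 TPM or more), against 714.2 to 1244 TPM in 2D libraries (7 to 8). The 7 blood progenitor markers summed to 12.53 to 24.33 TPM in 3D libraries, against 67.23 to 89.38 TPM in 2D libraries. The part of these cells in the lower CXCR4 of 3D cultures was not tested.

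CCRL2 rose most in the SP14 libraries, at 206.73 and 233.5 TPM, and in the SP6A libraries, at 104.27 and 105.78 TPM, against 11.3, 13.03, 14.4 and 13.36 TPM at 3D day 12. The lowest SP library thus lay far above the highest day 12 library. The change on the log2 scale was 3.98 ± 0.43 (adjusted p = 3.39e-07) for SP14 and 2.92 ± 0.43 (adjusted p = 2.37e-05) for SP6A. The E. coli libraries held 37.15 and 121.76 TPM, also above every library of the 4 days without FBS (2.46 ± 0.38, adjusted p = 1.26e-05; 2.52 with adjusted p = 0.19 under array weights). CMKLR1, to which CCRL2 presents chemerin, rose with it in SP6A (3.09 ± 0.28, adjusted p = 4.44e-08) and SP14 libraries (2.69 ± 0.28, adjusted p = 2.28e-07).

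At day 12, 3D libraries held CCRL2 at the values above, against 3.85, 3.05, 3.13 and 11.7 TPM in 2D libraries. The groups overlapped through 1 of the 2D libraries, replicate 4, which stood at 11.7 TPM while the other 3 lay below 4 TPM. The log2 change was 1.30 ± 0.36 (adjusted p = 0.0213), and the exact two-sided permutation p was 0.0571. Leaving out 1 library at a time ended the call in 5 of 8 fits, with adjusted p up to 0.0543, although the change stayed between 1.14 and 1.69. Those libraries were replicates 1, 2 and 3 of 2D culture and replicates 3 and 4 of 3D culture. CCRL2 was not called along the 3D days, where it lay between 5.42 and 16.08 TPM at days 16 to 23 without FBS. With FBS it fell at day 19, where the FBS libraries held 3.02, 2.78 and 4.18 TPM, against 16.08, 9.3 and 15.51 TPM without FBS (-1.74 ± 0.41, adjusted p = 0.00354). At day 16 the FBS libraries held 5.91, 10.03 and 19.32 TPM, against 11.67, 7.2 and 10.41 TPM, and at day 23 they held 8.98, 12.72 and 8.99 TPM, against 16.06, 12.13 and 5.42 TPM. Both pairs overlapped. The test of a difference between days did not pass (F = 6.40, adjusted p = 0.0508); it passed without the E. coli libraries in the fit (adjusted p = 0.0127). By group mean only SP14 (220.1 ± 18.9 TPM, SD, n = 2) stood apart from its neighbour at the top, E. coli and SP6A overlapped, and below a gap the other 8 groups overlapped in sequence with means from 13.6 to 3.33 TPM.

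CCR1 had the highest mean TPM of the 5 in every group but E. coli, and lay between 38.47 and 85.4 TPM in all libraries outside the SP6A, SP14 and E. coli groups. SP14 libraries held 266.45 and 257.44 TPM and SP6A libraries 156.63 and 166.05 TPM, against 59.6, 60.64, 65.78 and 68.5 TPM at 3D day 12. On the log2 scale the change was 2.03 ± 0.34 (adjusted p = 8.94e-05) for SP14 and 1.33 ± 0.34 (adjusted p = 0.00543) for SP6A, and no SP library overlapped day 12. The SP6A call was lost without its second library (adjusted p = 0.0623). The 13 macrophage markers together were also higher there, at 23150 to 23310 TPM in SP14 and 24800 to 25940 TPM in SP6A libraries, against 13330 to 15390 TPM at day 12, and their part in the CCR1 rise was not tested. The E. coli libraries split, at 58.42 and 13.54 TPM. Their mean change against the 4 days was -0.94 ± 0.30 (adjusted p = 0.0118), and without the second library it turned to 0.08 (adjusted p = 0.771), so this call rests on 1 library. It was also lost against day 19 alone (-0.76, adjusted p = 0.0877) and day 23 alone (-0.51, adjusted p = 0.258).

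In 3D culture at day 12 all 4 CCR1 values, given above, lay over those of 2D culture at 54.97, 57.66, 57.97 and 42.29 TPM. The change was small, 0.26 ± 0.16 on the log2 scale (adjusted p = 0.241). At day 23 without FBS the libraries held 41.98, 41.96 and 39.06 TPM, all below day 12 (-0.62 ± 0.30, adjusted p = 0.144). With FBS at day 23 they held 77.14, 79.84 and 85.4 TPM, against those same 3 values without FBS (0.96 ± 0.32, adjusted p = 0.0521). In a fit without the discordant E. coli libraries, both the fall at day 23 (adjusted p = 0.00712) and the rise with FBS at day 23 (adjusted p = 0.000632) passed the test. The interaction of FBS with day was not called for CCR1 (F = 4.14, adjusted p = 0.136), but it passed in that fit (adjusted p = 0.00301), with array weights (0.00289) and in a fit of the compared groups alone (0.019). At day 16 the FBS libraries held 58.31, 62.47 and 50.92 TPM, against 74.41, 70.21 and 75.07 TPM without FBS (-0.35 ± 0.32, adjusted p = 0.509), and at day 19 they held 51.14, 51.06 and 74.5 TPM, against 62.16, 48.07 and 38.47 TPM (0.25 ± 0.32, adjusted p = 0.625). By group mean SP14 (261.9 ± 6.37 TPM, SD, n = 2), SP6A (161.3 ± 6.66, n = 2), FBS day 23 (80.8 ± 4.21, n = 3), day 16 (73.2 ± 2.64, n = 3) and day 12 (63.6 ± 4.22, n = 4) followed each other without overlap. The remaining 6 groups overlapped in sequence, with means from 58.9 TPM in FBS day 19 to 36.0 TPM in E. coli.

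CCR2 was the lowest receptor, listed at 0 in 17 of 32 bulk libraries and at 1 TPM or more in 6. It fell in 3D against 2D culture at day 12, with 0.07, 0.59, 0.62 and 1.04 TPM in 3D libraries, against 4.03, 4.68, 4.58 and 3.58 TPM in 2D libraries. The groups did not overlap (log2 change -1.76 ± 0.22, adjusted p = 0.000719; exact permutation p = 0.0286, the smallest 4 against 4 allow). Monocytes carry CCR2, and the 7 monocyte markers summed to 4639 to 6572 TPM in 3D libraries, against 8285 to 10030 TPM in 2D libraries, with all 7 at 1 TPM or more in both. Granulocyte and megakaryocyte markers were higher in 2D as given above, and the part of these cells in the CCR2 difference was not tested.

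No 3D library other than E. coli held more than 1.04 TPM of CCR2, and no change among the days, FBS, SP6A or SP14 was called. The E. coli libraries held 0 and 26.16 TPM. The difference (log2 change 2.09 ± 0.61) rests on the second library alone. Its test is not counted, because the E. coli libraries themselves put CCR2 over the filter. Without the second library CCR2 was under the filter and had no test. In the E. coli libraries the 8 markers of mast cells, basophils and eosinophils summed to 1030 to 1822 TPM, with 5 of 8 at 1 TPM or more. The same list summed to 0 to 860.3 TPM over days 12 to 23 without FBS. EPX, eosinophil peroxidase, spanned 2.81 to 83.96 TPM between both E. coli libraries. The part of those cells in the CCR2 value was not tested.

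SP14 and SP6A libraries did not overlap in 4 of the 5 receptors, all but CCR2, but no difference passed the adjusted test. The log2 difference, SP14 minus SP6A, was 1.06 ± 0.50 for CCRL2, 0.70 ± 0.40 for CCR1, -0.78 ± 0.33 for CX3CR1 and -1.23 ± 0.63 for CXCR4 (limma adjusted p = 1 for each). With 2 libraries a group, an exact permutation test cannot go below 0.333, which is its value for each of these 4. The share of all genes without overlap was not computed, so the lack of overlap does not set the receptors apart. Weighting each library by its own spread in limma called all 4, with adjusted p between 0.00241 and 0.0322. That setting called 743 genes in all. Across all genes the test called 4 of 13384, and 428 had an unadjusted p under 0.05.

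**Figure D3:**
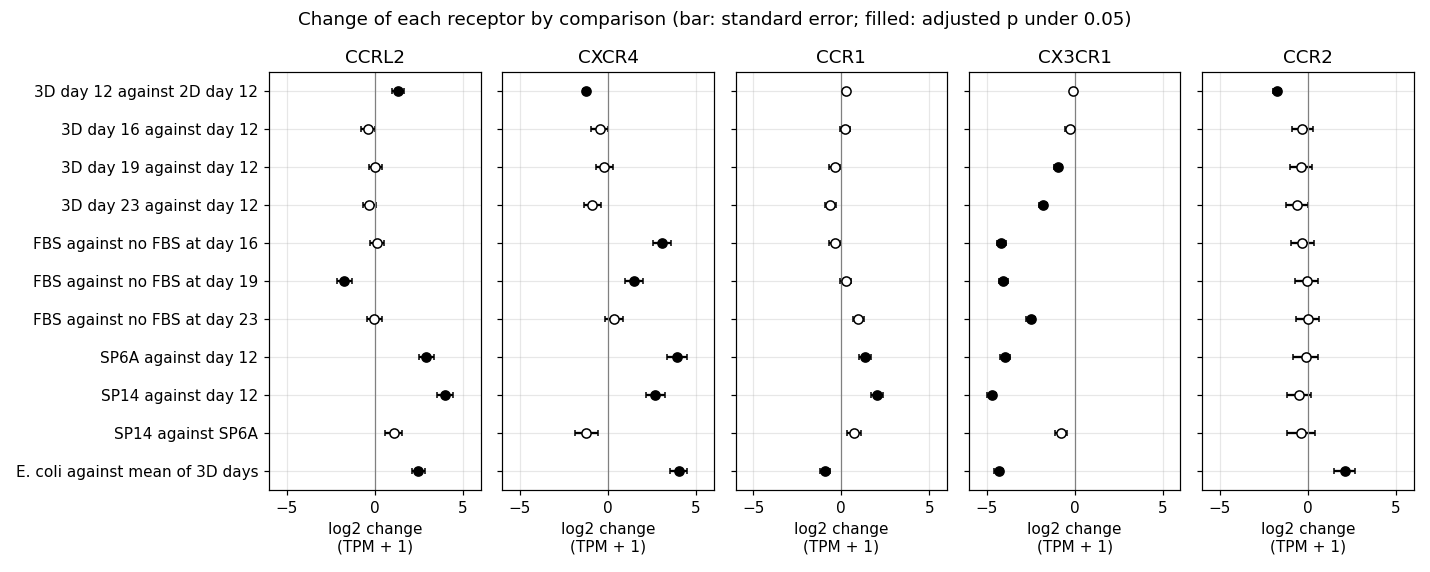
Log2 change on the TPM + 1 scale of each receptor (horizontal axis) in 11 comparisons (rows), with the standard error as bar and filled points where the limma adjusted p was under 0.05. CCRL2, CXCR4 and CCR1 lie to the right in SP6A and SP14 against day 12 while CX3CR1 lies to the left at -3.94 and -4.72. The filled CCR2 point in the E. coli row is not counted as a call.

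Ligands of the 5 receptors were read as a list of 16, of which 15 were in the table, 7 were tested at day 12 and 10 among 3D groups. In 3D against 2D culture 4 rose and 2 fell, beside 37.8% of all genes called (median log2 change 2.17, against -0.21 over all genes). CCL3, a ligand of CCR1, stood between 1974.67 and 2281.14 TPM in 3D libraries, against 135.63 to 166.75 TPM in 2D libraries (3.86 ± 0.15, adjusted p = 9.11e-06). CCL2, the main ligand of CCR2, stood between 4031.58 and 5455.4 TPM in 3D libraries, against 819.11 to 1281.16 TPM in 2D libraries (2.17 ± 0.19, adjusted p = 0.000166). CCL5, a further ligand of CCR1, fell to 0.87 to 4.41 TPM in 3D libraries, against 15.15 to 34.37 TPM in 2D libraries (-2.77 ± 0.37, adjusted p = 0.000968); it was added after its values were seen. Ligands of CCR1 thus moved both ways in 3D culture. CCL3L1, a near-identical copy of CCL3 whose reads the counting could share with it, changed by 4.41 ± 0.18 (adjusted p = 9.11e-06). MIF, a cytokine that also binds CXCR4, fell (-1.25 ± 0.15, adjusted p = 0.000574).

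With FBS on the mean of the 3 days, 1 of 10 ligands rose and 6 fell, beside 34.3% of all genes called (median -0.60, against 0.04 over all genes), among them CCL2 (-1.33 ± 0.12, adjusted p = 2.58e-08). CCL2 differed by day, at 481.44 to 667.49 TPM with FBS at day 16, against 3415.72 to 4502.76 TPM without, and at 4100.8 to 5325.1 TPM with FBS at day 23, against 2840.13 to 2935.23 TPM without (interaction adjusted p = 3.6e-07). In SP14 against day 12, 4 ligands rose and 3 fell, beside 31.4% of all genes called (median 1.02, against 0.09), and in SP6A 4 rose and 3 fell, beside 27.9% (median 0.51, against 0.18). CCL3 reached 24035.99 to 25172.55 TPM in SP14 libraries and 14342.97 to 15811.0 TPM in SP6A libraries, against the day 12 values above. CXCL12, the ligand of CXCR4, stood at 41.13 to 44.43 TPM in SP14 and 38.45 to 39.64 TPM in SP6A libraries, against 0.72 to 3.37 TPM at day 12 (4.15 and 4.02 on the log2 scale, both called). CXCL12 falls outside the 4 genes the naming rule allows for these comparisons and was added after its values were seen. In E. coli libraries 4 ligands rose and 5 fell, beside 56.6% of all genes (median -1.13, against -0.84), with CCL3 at 31734.35 and 41320.9 TPM. Along the 3D days without FBS, day 16 had 3 ligands higher and 2 lower of 10 (16.6% of all genes called), day 19 had 3 and 3 (11.8%), and day 23 had 4 and 3 (25.6%). CCL8, which binds CCR2 among others, rose at each (5.08 ± 0.56 at day 23, adjusted p = 9.43e-07).

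Of 18 other chemokine receptors, 6 passed the filter in each fit. In 3D against 2D culture none rose and 2 fell, beside 37.8% of all genes called. At day 23 against day 12 without FBS none rose and 2 fell (25.6%). With FBS on the mean of the days 1 rose and none fell (34.3%). In SP14, SP6A and E. coli libraries 2 rose and none fell (31.4%, 27.9% and 56.6%). With 6 genes tested, these counts alone do not set the list apart. CCR3, best known from eosinophils, stood at 7.32 to 7.37 TPM in SP14 and 7.03 to 7.44 TPM in SP6A libraries, against 0.16 to 1.41 TPM at day 12. It rose in SP14 (log2 change 2.20 ± 0.43, limma adjusted p = 0.000404) and SP6A libraries (2.18 ± 0.43, adjusted p = 0.000532), and no SP library overlapped day 12. The 8 markers of mast cells, basophils and eosinophils summed to 0.23 to 370.5 TPM at 3D day 12. They summed to 155.1 to 159.7 TPM in SP14 and 287.6 to 301.4 TPM in SP6A libraries. The part of those cells in the CCR3 rise was not tested.

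Among 23 genes of receptor signalling and desensitization, 22 were tested. GRK2, a kinase that desensitizes such receptors, fell in 3D against 2D culture (-2.47 ± 0.28, limma adjusted p = 0.00051), as did 6 others. In that comparison 2 rose, beside 37.8% of all genes called (median -0.32, against -0.21 over all genes). RAC2, a GTPase of leukocyte migration, rose there (0.97 ± 0.15, adjusted p = 0.00176) and fell with FBS on the mean of the days (-1.06 ± 0.14, adjusted p = 3.19e-06), in SP6A (-2.36 ± 0.25, adjusted p = 3.15e-07) and in SP14 libraries (-2.89 ± 0.25, adjusted p = 1.22e-08). Of these 22, FBS called 6 higher and 5 lower (34.3% of all genes), SP14 7 and 5 (31.4%), SP6A 4 and 3 (27.9%) and E. coli 4 and 5 (56.6%). The SP6A share is near that of all genes and the E. coli share below it. Of 9 RGS proteins, which shut G protein signals off, 8 were tested. In 3D against 2D culture 2 rose and none fell, beside 37.8% of all genes called. With FBS on the mean of the days 1 rose and 4 fell (34.3%). In SP6A 1 rose and 1 fell (27.9%), in SP14 1 rose and 2 fell (31.4%), and in E. coli libraries 2 rose and 3 fell (56.6%). With 8 genes tested, these counts alone do not set the list apart. RGS1 rose in 3D against 2D culture (3.00 ± 0.18, adjusted p = 3.21e-05), fell with FBS at days 16 (-3.17 ± 0.31, adjusted p = 4.95e-07) and 19 (-2.69 ± 0.31, adjusted p = 2.63e-06), and rose in SP6A (1.96 ± 0.33, adjusted p = 0.000104) and SP14 libraries (2.90 ± 0.33, adjusted p = 6.52e-07). RGS2 rose in 3D against 2D culture as well (3.86 ± 0.30, adjusted p = 0.00012) but fell in SP6A (-1.25 ± 0.27, adjusted p = 0.00111) and SP14 libraries (-1.12 ± 0.27, adjusted p = 0.00244).

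Over the 11 group means, the genes whose log2(TPM + 1) pattern was most like that of each receptor were taken from 8705 genes with a mean of at least 5 TPM. CCRL2 was closest to AZIN1 (Pearson r = 0.983), CD83 (0.969) and PLEK (0.96). CX3CR1 was closest to NME2 (0.974), SERBP1 (0.963) and NME1 (0.962), and NME1 and NME2 are near-identical neighbours whose reads may be shared. CCR1 was closest to MON1B, FASTKD5 and NQO2 (0.948 each), CXCR4 to RAB38 (0.943), ADD3 (0.933) and FGL2 (0.932), and CCR2 to PRG3 (0.961), FZR1 (0.952) and HILPDA (0.929). These values describe 11 points that share libraries and scaling, and those of CCR2 are led by the E. coli group.

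The single-cell libraries of 3D culture show which of their own cells held the receptor RNA. After filtering, 6551, 11292 and 7592 cells were kept at days 7, 9 and 12. Their UMIs (unique molecular identifiers, each a captured RNA molecule) had medians of 24180, 13030 and 16620 per cell, and between 17 and 24 barcodes were shared by any pair of libraries. Cells were grouped into 19 clusters without using any of the 5 receptors or the 18 others. Counts are pooled over cells as CPM (a gene's share of the UMIs, scaled to a fixed total) with exact 95% Poisson intervals, which hold counting error only, and with 1 library a day no difference was tested. Names ending in "-like" rest on marker genes. Stroma-like cells were 49.34% of day 12 cells, while the 8 stroma markers summed to 4.64 to 74.77 TPM in bulk 3D day 12 libraries. Macrophage markers summed to 13330 to 15390 TPM in those bulk libraries. The mixtures of cells thus differed, and the shares of UMIs by class below were not carried over to bulk values.

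Macrophage-like cells (clusters 5 and 11) numbered 2118 at day 12, with a median of 29840 UMIs. At day 9 they were 0.213% of cells and held 8.35% of the CCR1 UMIs and 2.59% of the CX3CR1 UMIs, and at day 7 there were none among 6551 cells. At day 12 CCR1 was their leading receptor, at 149.2 CPM (146.3 to 152.2), then CX3CR1 at 62.12 CPM (60.23 to 64.05), CCRL2 at 15.58 CPM (14.64 to 16.56) and CXCR4 at 3.88 CPM (3.42 to 4.39). CCR2 gave 15 UMIs in all these cells, or 0.227 CPM. The order of the first 4 was that of the TPM means in the bulk 3D day 12 libraries. These cells made up 27.9% of day 12 cells and held 88.38% of the CCR1 UMIs, 93.18% of those of CX3CR1 and 75.09% of those of CCRL2, but 5.57% of those of CXCR4.

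**Figure D4:**
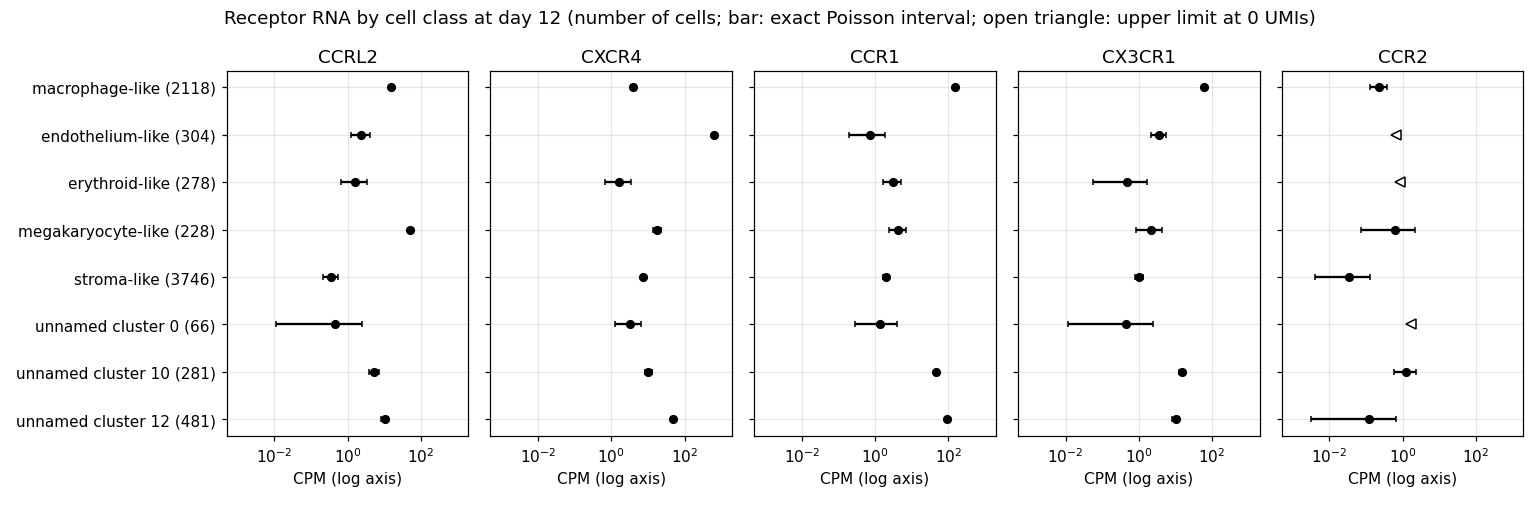
Pooled CPM (horizontal log axis) of the 5 receptors in cell classes of the day 12 single-cell library with at least 50 cells; bars are exact 95% Poisson intervals, numbers in parentheses are cells, and open triangles are upper limits where no UMI was seen. CCR1 and CX3CR1 are highest in macrophage-like cells and CXCR4 in endothelium-like cells at 618.0 CPM.

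The 2 macrophage-like clusters held the receptors at different levels. Cluster 5 (1469 cells at day 12) is led by inflammatory genes (CCL4, CCL3L1, CCL4L2, CCL3, IL1B and CXCL8) and cluster 11 (649 cells) by MRC1, ADAP2, CD163 and MS4A6A, and all 13 macrophage markers passed in each, although none is among the 10 leading genes of cluster 5. CCRL2 stood at 20.80 CPM (19.48 to 22.18) in cluster 5, against 4.71 CPM (3.83 to 5.72) in cluster 11. CX3CR1 ran the other way, at 52.09 CPM (49.99 to 54.25) in cluster 5, against 83.02 CPM (79.21 to 86.96) in cluster 11, and so did CCR1, at 139.9 CPM (136.4 to 143.4), against 168.6 CPM (163.1 to 174.2). For these 3 receptors the intervals of the clusters did not overlap. CXCR4 stood at 5.14 CPM (4.50 to 5.85) in cluster 5, against 1.26 CPM (0.829 to 1.83) in cluster 11, beside 7.38 CPM in stroma-like and 1.65 CPM in erythroid-like cells. CCR2 stood at 0.224 CPM in cluster 5, against 0.233 CPM in cluster 11, which counting error cannot tell apart. Both clusters had similar depth, with medians of 28720 and 31860 UMIs, and MKI67, a marker of dividing cells, stood at 167.9 CPM in cluster 5, against 310.0 CPM in cluster 11. Within 1 library, the cells of a cluster are not replicates.

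**Figure D5:**
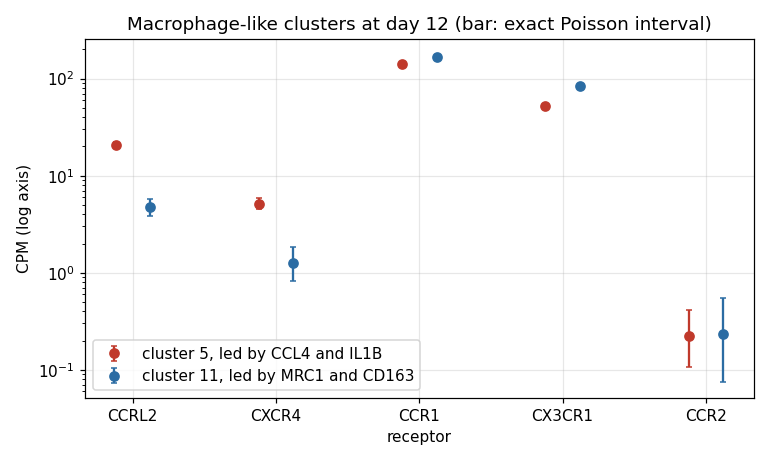
CPM (log axis) of the 5 receptors in both macrophage-like clusters of the day 12 library, with exact 95% Poisson intervals. Cluster 5 lies above cluster 11 for CCRL2, at 20.80 against 4.71 CPM, and below it for CCR1 and CX3CR1.

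To compare shares of cells across depths, each cell was thinned to 3000 UMIs, which left out 20 macrophage-like cells and 64 stroma-like cells. Of macrophage-like cells, 36.2% (exact binomial interval 34.16 to 38.32) then held a CCR1 UMI, 14.35% CX3CR1, 5.34% CCRL2, 1.38% CXCR4 and 0.0477% CCR2, which is 1 cell. The shares before thinning were 91.36%, 59.21%, 31.4%, 8.03% and 0.661%. In stroma-like cells, which should lack these receptors of blood cells, the thinned shares were 0.570% for CCR1, 0.217% for CX3CR1, 0.0815% for CCRL2 and 0 of 3682 cells for CCR2, where a floor of 3 counts allows up to 0.0815% of cells with a UMI. Median depth before thinning was 13480 UMIs there. For CXCR4 the stroma-like share, 2.17%, was above the macrophage-like share, so macrophage-like cells showed no CXCR4 share above that of stroma-like cells. The part of free RNA in these CXCR4 UMIs was not tested. After thinning, 51.05% of macrophage-like cells held none of the 5, 40.8% held 1, 7.91% held 2 and 0.238% held 3. CCR1 and CX3CR1 were seen together in 113 of 2098 cells.

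Outside the macrophages, CXCR4 was highest in endothelium-like cells (cluster 1, with CDH5, ESM1 and NOTCH4 among its leading genes). They held 212.6 CPM (208.2 to 217.1) at day 7, 267.0 CPM (261.2 to 272.8) at day 9 and 618.0 CPM (597.3 to 639.2) at day 12. At day 12 they were 4.0% of cells and gave 73.25% of all CXCR4 UMIs, and after thinning 67.63% of them held one. At day 9 an unnamed cluster (cluster 7, 1128 cells) held 66.47 CPM, near the 65.60 CPM over all cells of that day. It gave 17.93% of that day's CXCR4 UMIs, and 76.95% of its cells held one before thinning and 19.27% after. Its CCR1 (5.0 CPM), CX3CR1 (7.01 CPM) and CCRL2 (3.07 CPM) also lay near those over all cells, at 4.32, 5.70 and 3.24 CPM. An unnamed cluster led by DEFA3, DEFA4, MPO and PRTN3 (cluster 12, 481 cells) held 47.62 CPM of CXCR4, 91.59 CPM of CCR1, 10.47 CPM of CCRL2 and 10.23 CPM of CX3CR1 at day 12. A further unnamed cluster, led by CLC, PRG2, PRG3 and EPX (cluster 10, 281 cells at day 12), held 47.03 CPM of CCR1 and 14.77 CPM of CX3CR1. Its CCR2 stood at 1.24 CPM (0.595 to 2.28, from 10 UMIs), against 0.227 CPM (0.127 to 0.374, from 15 UMIs) in macrophage-like cells. No other class gave 10 or more CCR2 UMIs. At day 9 the 351 cells of cluster 10 held 60.36 CPM of CX3CR1 and 49.05 CPM of CCR1. They gave 59.69% of CX3CR1 UMIs and 64.02% of CCR1 UMIs of that day. CCRL2 stood in megakaryocyte-like cells at 5.81 CPM at day 7, 13.39 CPM at day 9 and 51.52 CPM at day 12. At days 9 and 12 CCRL2 was higher there than in any other class of at least 50 cells. In cluster 17, led by PPBP, CCL5, CLEC1B and PF4, it reached 66.47 CPM (55.99 to 78.35). Macrophage-like cells of day 9 were too few to be ranked. They were 0.2125% of cells and gave 1.275% of that day's CCRL2 UMIs (7 UMIs). Megakaryocyte-like cells were 13.53% of cells and gave 57.19% of them.

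Over all cells of a library, CCR1 stood at 0.129 CPM at day 7, 4.32 CPM at day 9 and 71.47 CPM at day 12, and CX3CR1 at 1.01, 5.70 and 28.23 CPM. CCRL2 stood at 2.81, 3.24 and 8.78 CPM. CXCR4 stood at 57.48, 65.60 and 29.51 CPM, while endothelium-like cells were 1744 of 6551 cells at day 7 and 304 of 7592 at day 12. No CCR2 UMI was seen at day 7, 6 at day 9 and 30 at day 12. Among ligands at day 12, CCL2 stood at 2405 CPM and CCL3 at 1798 CPM in macrophage-like cells, while CXCL12 stood at 40.69 CPM and RARRES2, which encodes chemerin, at 23.49 CPM in stroma-like cells, against 2.16 CPM of CXCL12 in macrophage-like cells.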

How the data were processed

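Bulk values are TPM per gene as the authors deposited them. The submitters' processing notes list Trim Galore 0.4.4, HISAT2, HTSeq 0.11.1 and hg38, without saying which tool gave the TPM. Single-cell UMI counts were deposited by the authors as Cell Ranger matrices (7.1.0 at days 7 and 9, 7.0.0 at day 12, per the file headers). The 5 receptors and the gene lists were chosen with earlier results of these data known.

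TPM were analysed with limma 3.58.1 (R 4.3.3) on log2(TPM + 1), for genes whose mean reached 1 TPM in the fit (8 libraries of day 12, or all 28 of 3D culture), with Benjamini-Hochberg adjustment. Exact permutation tests were two-sided. List genes were named if a group mean reached 5 TPM, lowest adjusted p first, up to 4 per list and comparison. The test was checked on simulated data. Changes of 2 on the log2 scale were recovered in 83% of cases in 3D against 2D and 43% in SP6A against day 12. Changes of 1 were recovered in 23% and 5% of cases there, in 12% at day 16 and in 6% with FBS at day 16. A change of about 1 that was not called is therefore not shown to be absent.

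Cells with at least 1000 UMIs, 500 genes and at most 15% mitochondrial counts were kept, 216, 435 and 369 called doublets were removed at days 7, 9 and 12, and cells were clustered with scanpy 1.11.5 (Leiden resolution 0.5). CPM were computed here from the deposited counts. Chromatin libraries of the series were not used here. Results of 1 listed gene are not reported here.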

Additional observations from a re-analysis of the deposited data

Results flagged for a closer look

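CCRL2 in 2D day 12 libraries had 1 value far from the others: replicate 4 held 11.7 TPM and the other 3 held 3.85, 3.05 and 3.13 TPM. The gap to its nearest neighbour was 0.9075 of the whole range. Groups of 4 were tested for 10 gene and group pairs, and chance flags about 1 in 20 of them. Without that library the change of CCRL2 in 3D against 2D culture was 1.69 on the log2 scale.

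The effect of FBS on CX3CR1 differed between days (limma interaction, adjusted p = 0.00673). The log2 change was -4.15 at day 16, -4.04 at day 19 and -2.50 at day 23, and CX3CR1 without FBS was also lower at day 23, at 7.29 to 10.34 TPM, than at day 16, at 20.05 to 36.85 TPM.

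The effect of FBS on CXCR4 differed between days (limma interaction, adjusted p = 0.0378). The log2 change was 3.06 at day 16, 1.49 at day 19 and 0.32 at day 23.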

How the results depend on the processing

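Over all alternatives, 919 values of single receptors kept their direction and their side of the threshold, 37 lost a call, 25 gained one and 23 changed sign. The causes were not tested. Numbers of called genes that moved by more than 1.5 times were as follows. Without a filter on low values, SP6A against day 12 called 6468 genes and SP14 against SP6A 544. With array weights, day 16 called 4444, day 19 4016, FBS at day 23 2842, the interaction 2913, SP6A 7423, SP14 7445, SP14 against SP6A 743 and E. coli 940. With array weights in the E. coli comparison, CCR1 (-0.93, adjusted p = 0.433), CXCR4 (4.04, 0.108) and CCRL2 (2.52, 0.19) lost their calls with changes of about the same size. In limma fits of the compared groups alone, day 16 called 3762, SP6A 5974, SP14 6346 and SP14 against SP6A 0 (1985 at an unadjusted p under 0.05). Without the E. coli libraries, day 16 called 3435, day 19 2567, FBS at day 16 3672, FBS at day 23 2973 and the interaction 3181.

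Median-ratio scaling moved the median of all genes from -0.21 to -0.04 in 3D against 2D culture, from 0.18 to -0.08 at day 16, from 0.04 to -0.09 at day 19, from 0.16 to 0 for FBS at day 23, from 0.18 to -0.07 in SP6A and from 0.09 to -0.14 in SP14. It turned CX3CR1 to 0.13 in 3D against 2D culture, CCR1 to -0.15 at day 16 and CCRL2 to -0.15 at day 19. Array weights turned CCRL2 to -0.23 at day 19 and CCR2 to 0.069 for FBS at day 19. None of these was called.

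Leaving out 1 library at a time gave 1510 to 1963 called genes for FBS at day 16, 2003 to 3438 for SP6A, 2568 to 3920 for SP14 and 4 to 8 for SP14 against SP6A. A lone SP or E. coli library was then assumed to vary like the other groups. Signs changed for CCRL2 at day 19 (-0.10 to 0.26) and day 23 (-0.61 to 0.10), CXCR4 at day 19 (-0.67 to 0.12), CCRL2 with FBS at day 16 (-0.28 to 0.50) and day 23 (-0.43 to 0.27), CCR2 in SP6A (-0.43 to 0.18) and with FBS at day 19 (-0.23 to 0.18), and CCR1 in E. coli (-1.95 to 0.080).

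Same-numbered libraries did not deviate together: 0 of 4 pairs at day 12 and 0 of 111 among 3D groups had a correlation over 0.1. With a replicate block, CXCR4 lost its call for FBS at day 19 (adjusted p = 0.0567) and in the interaction (0.0619), CCR2 in SP6A turned to 0.037, and counts of called genes stayed within 1.5 times, such as 4110 in 3D against 2D culture. With doublets kept, macrophage-like cells held 139.3 CPM of CCR1, 58.13 of CX3CR1, 5.23 of CXCR4 and 14.38 of CCRL2. Bulk depth is unknown, so no floor can be given for CCR2 listed at 0, and single-cell values come from 1 library a day.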
